A study of Homo sapiens with 15 samples.

Results

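H9 cells, an established line of human embryonic stem cells, were compared on day 4 and day 3 of differentiation to definitive endoderm, with 3 bulk RNA-seq libraries on each day. These 6 libraries are part of 15 that cover days 0 to 4, and no library of either day was left out. Cells of both days had been maintained in E8 medium, moved to Advanced RPMI 1640 with activin A and the GSK3 inhibitor CHIR99021 for 24 hours, and then kept in activin A without CHIR99021, so that the groups differed in a further day of activin A. The labels name no separate control culture for either day. They also leave unsaid whether libraries 1, 2 and 4 were grown apart, so every p-value measures the spread between these samples, which may be technical. Libraries carry the numbers 1, 2 and 4, and a day 4 library was set against the day 3 library of the same number, giving 3 pairs called pair 1, pair 2 and pair 4. The labels do not say what a number stands for, and the pairing was weakest for replicate 2: deviations from the day's mean correlated across genes at 0.211 between its day 3 and day 4 libraries, against 0.761 and 0.688 for replicates 1 and 4. Its day 4 library correlated at -0.31, -0.274 and -0.224 with replicate 2 of days 0, 1 and 2, and at 0.378, 0.177, 0.347 and 0.244 with replicate 4 of days 0 to 3. Results that rest on pair 2 or on the paired fit carry this limit.

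Definitive endoderm is the germ layer that forms the lining of the gut and the liver, pancreas and lungs. It arises from the anterior primitive streak under Nodal signalling, which activin A mimics, and its cells express SOX17, FOXA2, GATA factors and the chemokine receptor CXCR4. Genes for HNF4A and for secreted apolipoproteins become prominent later, as endoderm acquires foregut and liver character, while cells that take the neighbouring mesoderm path express receptors such as KDR and PDGFRA.

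Levels are CPM, counts scaled to a common library size with TMM factors, which are not corrected for transcript length and are therefore compared between days for a gene and not between genes. A pair difference is log2(CPM + 0.5) on day 4 minus that on day 3, and its mean ± SD is over the 3 pairs. The added 0.5 CPM makes the difference of a low gene smaller than its ratio of levels. Values in a list run in the order replicates 1, 2 and 4. A gene was called at an adjusted p under 0.05.

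Total counts ran from 65534538 to 145857940 on day 3 and from 54723184 to 98048836 on day 4. Replicate 1 stood apart on both days: CER1, a secreted Nodal antagonist of endoderm, was at 478 and 397 CPM there and at 1867 to 4478 CPM in the other 4 libraries, and EOMES, a streak and endoderm factor, was at 60.3 and 81.6 CPM against 326 to 452. Replicate 2 differed in the share of counts from 83 ribosomal protein genes, which went from 2.31% on day 3 to 4.02% on day 4, against 2.07% on both days for replicate 1 and 5.88% and 4.60% for replicate 4. SOX17 was at 121, 103 and 224 CPM on day 3 and 74.6, 204 and 246 on day 4, GATA4 was at 200.8 CPM or more in all 6 libraries, and POU5F1, the OCT4 gene, was at 16.9 to 199 CPM. Endoderm markers were thus present in all 6 libraries under the label definitive endoderm.

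The day 4 cells had more RNA of the apolipoprotein genes APOA1 and APOA2, the Nodal antagonist LEFTY2, the receptor CXCR4, the cysteine protease inhibitor CST1 and the collagen COL2A1 in each of the 3 pairs, and less of MTHFD2, the mitochondrial folate enzyme, and of SNAI2, a repressor of epithelial genes. Across all 17401 tested genes, edgeR's quasi-likelihood test without pairing called 0 genes higher (0% of tested genes) and 0 lower (0%), with a smallest adjusted p of 0.490. At an unadjusted p under 0.05 it had 504 genes higher and 570 lower. DESeq2 on the same 15 libraries called 27 higher (0.155%) and 37 lower (0.213%) of 17369 genes with an adjusted p. The edgeR fit of the 6 libraries with the pairs as a block called 11 genes higher (0.0632%) and 2 lower (0.0115%), and the block over all 15 libraries called 0 in either direction, with a smallest adjusted p of 0.108. The 6-library fit has only 2 residual degrees of freedom, so its spread rests largely on that shared across genes (8.72 prior degrees of freedom). None of its 13 calls held in the block over all 15 libraries.

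The direction was the same in all 3 pairs for 6137 genes, 3146 of them higher on day 4 (18.1% of tested genes) and 2991 lower (17.2%). These shares are the background for each count of list members below, and a count near them is no trait of its list. A difference of at least 1 on the log2 scale in each pair was found for 55 genes higher (0.316%) and 19 lower (0.109%). The 3 day 4 libraries did not overlap with the 3 day 3 libraries for 861 genes higher (4.95%) and 751 lower (4.32%). Pairs 1 and 4 resembled each other more than either resembled pair 2. Across genes, which are not independent replicates, the Pearson correlation of the pair differences was 0.559 for pairs 1 and 4, 0.130 for pairs 2 and 4 and 0.037 for pairs 1 and 2. Genes higher in both pair 1 and pair 4 numbered 5925 (34% of tested genes) and genes lower in both 5790 (33.3%), of which 2751 and 2766 went the other way in pair 2. Counts over pairs 1 and 4 alone were not planned, here or for the lists below, and are a description.

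Of 21 tested genes of the apolipoprotein and serum protein list, 12 were higher and 0 lower in all 3 pairs. Over all tested genes these shares were 18.1% and 17.2%. APOA1, the main protein of high-density lipoprotein, was at 7.68, 13.8 and 0.316 CPM on day 3 and at 98.1, 71.4 and 56.6 CPM on day 4. Each day 4 library was above all 3 day 3 libraries, and the lowest day 3 value, in replicate 4, was followed by the largest of the pair differences, which were 3.59, 2.33 and 6.13 (mean 4.02 ± 1.94 SD, n = 3). On days 0 to 2 APOA1 had stayed between 0.438 and 2.36 CPM. The call for APOA1 depended on the fit: the adjusted p was 0.574 by edgeR without pairing, 0.104 by edgeR with the pairs as a block and 0.0135 by DESeq2.

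APOA2, the second protein of high-density lipoprotein, was at 0.747, 2.34 and 1.65 CPM on day 3 and at 4.61, 17.7 and 7.07 CPM on day 4, again without overlap. Its pair differences were 2.04, 2.68 and 1.82 (edgeR adjusted p = 0.597 without pairing and 0.0397 with the pairs as a block). APOE, which carries lipids between tissues, was at 103, 159 and 607 CPM on day 3 and 253, 1117 and 1002 on day 4, so that each pair went up while the 2 groups overlapped. APOC1, encoded next to APOE, was at 10.6, 18.3 and 18.3 CPM and then 18.7, 37.2 and 27.5. The plasma haemoglobin-binding protein HP was under 1 CPM in the day 3 libraries, at 0.0951, 0.571 and 0.146, and was at 2.12, 5.01 and 4.31 CPM on day 4. HP was called in the paired edgeR fit (adjusted p = 0.0397).

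Of the 31 apolipoprotein and serum protein genes listed, 21 were tested. They are the same 21 as above, with 12 higher and 0 lower in all 3 pairs, beside 18.1% and 17.2% of all tested genes. Of the 21, 8 had a mean over 1 CPM on day 3 and 10 on day 4. Some of the 12 thus rest on few counts, such as SERPINC1, at 0.1374 CPM or less, and SERPINF2, at 0.2945 or less. The groups did not overlap for 4 of the 21, APOA1, APOA2, APOC1 and the adhesive plasma protein VTN, beside 4.95% of all tested genes. VTN went from 0.150, 0.451 and 0.267 CPM to 2.47, 2.08 and 1.24. The median of the list's mean pair differences was 0.40, against 0.01 over all tested genes. APOB, the protein of low-density lipoprotein, differed between pairs, from 3.32 to 24.3 CPM in pair 1, 0.811 to 1.98 in pair 2 and 0.194 to 0.283 in pair 4. Genes of a differentiated liver cell stayed near 0: ALB, serum albumin, was at 0.210 CPM or less and AFP, alpha-fetoprotein, at 0.177 or less in the 6 libraries. In bulk RNA, more cells of a type and more RNA per cell cannot be told apart, here or in any comparison that follows.

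**Figure D1:**
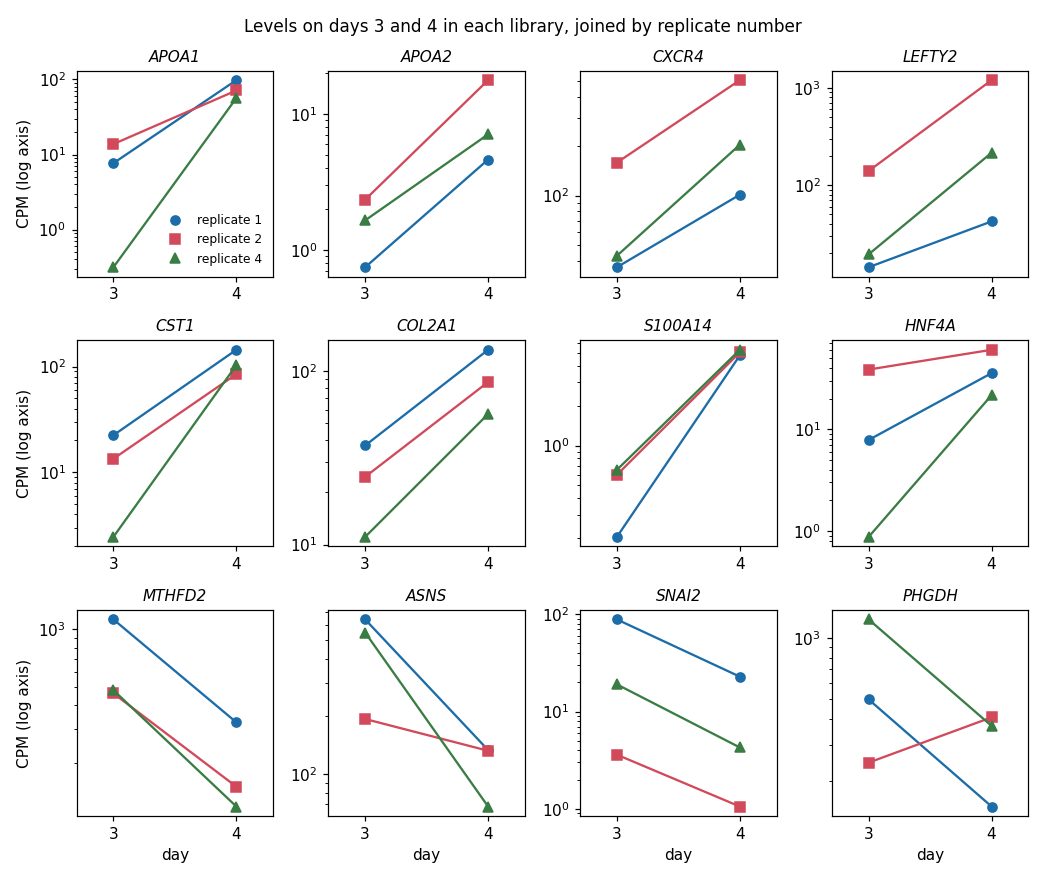
Levels of 12 genes in the 6 libraries, with the day on the horizontal axis, CPM on a logarithmic vertical axis that differs between panels, and a line for each replicate number. APOA1 lines run from at most 13.8 CPM on day 3 to at least 56.6 CPM on day 4, MTHFD2 lines all run down, and the PHGDH line of replicate 2 crosses those of replicates 1 and 4.

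Transcription factors of later endoderm were higher for some members. HNF4A, a nuclear receptor that controls many liver and gut genes, was at 7.84, 38.6 and 0.874 CPM on day 3 and at 35.6, 60.4 and 21.6 on day 4. The groups overlapped, since the day 3 library of replicate 2 lay above the day 4 libraries of replicates 1 and 4. The pair differences of HNF4A were 2.11, 0.64 and 4.01, and edgeR gave an adjusted p of 0.878 without pairing and 0.206 with it. IHH, a hedgehog ligand made by gut endoderm, went from 0.639, 8.44 and 0.0728 CPM to 7.03, 45.8 and 18.8, with pair differences of 2.73, 2.37 and 5.07.

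NR5A2, a nuclear receptor of early embryo and liver, went the other way, from 12.2, 14.6 and 19.8 CPM to 4.77, 8.41 and 8.87 without overlap. FOXA1, a pioneer factor of endoderm, was at 0.842, 0.330 and 0.194 CPM on day 3 and 4.44, 6.37 and 0.424 on day 4. The related FOXA2, at 252, 116 and 48.2 and then 171, 210 and 89.6 CPM, was lower in pair 1 and higher in the other 2 pairs. Of 21 tested genes of later endoderm and gut tube, 6 were higher and 3 lower in all 3 pairs, beside 18.1% and 17.2% of all tested genes. Their median mean pair difference was -0.06. PDX1 and NKX2-1, factors of pancreas and lung, had too few counts to be tested.

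FOXQ1, a forkhead factor, was called in the paired edgeR fit (adjusted p = 0.0397 there and 0.769 without pairing). It was at 0.0815, 6.01 and 0.437 CPM on day 3 and 2.02, 38.2 and 34.2 on day 4. The groups overlapped because replicate 2 was already at 6.01 CPM on day 3.

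Among surface receptors, CXCR4, the CXCL12 receptor used to sort definitive endoderm, was at 36.5, 159 and 42.8 CPM on day 3 and at 101, 509 and 205 CPM on day 4. Replicate 2 was highest on both days, and its day 3 level lay above the day 4 level of replicate 1, so the groups overlapped. The pair differences were nevertheless alike, at 1.46, 1.67 and 2.24 (mean 1.79 ± 0.41 SD, n = 3), and edgeR gave an adjusted p of 0.658 without pairing and 0.0397 with it. CXCR4 had been at 1.05 to 1.75 CPM on day 0 and at 11.3 to 34.4 CPM on day 2.

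FZD5, a Wnt receptor, was at 311, 855 and 154 CPM on day 3 and at 744, 1818 and 420 on day 4, with pair differences of 1.26, 1.09 and 1.45. FZD8, another Wnt receptor, went from 41.7, 89.5 and 91.8 CPM to 86.6, 269 and 125. APLNR, the apelin receptor of streak and mesendoderm, was lower in each pair, at 730, 160 and 761 CPM and then 131, 72.4 and 251, although the day 3 library of replicate 2 lay below the day 4 library of replicate 4. KIT, the stem cell factor receptor, differed little, by 0.18, 0.26 and 0.20. Of 18 tested receptors and ligands of the endoderm surface, 6 were higher and 2, APLNR and the platelet-derived growth factor receptor PDGFRA, were lower in all 3 pairs. The shares over all tested genes were 18.1% and 17.2%.

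**Figure D2:**
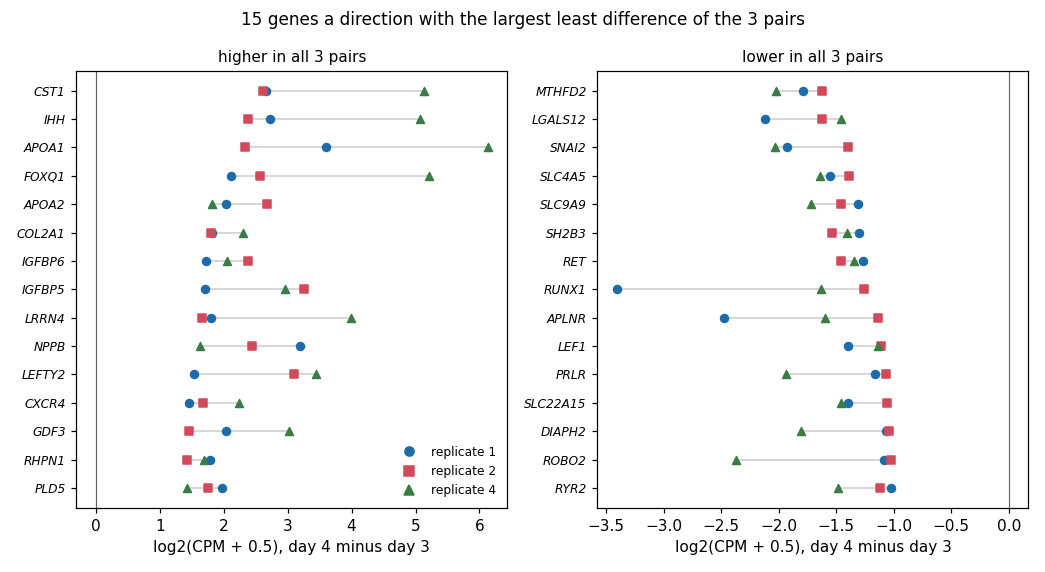
Pair differences, day 4 minus day 3 on the log2(CPM + 0.5) scale, of the 15 genes in each direction whose smallest of 3 pair differences was largest, with a symbol for each replicate number. These genes were picked for this pattern, from CST1 to PLD5 on the higher side and from MTHFD2 to RYR2 on the lower side.

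The genes in the plot of ranked pair differences had a mean of at least 5 CPM over the 6 libraries and were picked for a large smallest pair difference, so their directions are a description. The last gene inside on the higher side was the phospholipase D family gene PLD5, whose smallest pair difference was 1.43, and the first outside was the fatty acid transport protein gene SLC27A3, at 1.40. On the lower side these were RYR2, a calcium release channel, at -1.02 and TGFA, a ligand of the EGF receptor, also at -1.02.

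CST1, the inhibitor cystatin SN, led the higher side with 22.4, 13.4 and 2.45 CPM on day 3 and 144, 84.7 and 103 on day 4. It had stayed between 0.939 and 2.25 CPM on days 0 to 2. The groups of CST1 did not overlap, and edgeR gave an adjusted p of 0.490 without pairing and 0.0438 with it, while DESeq2 gave 5.82e-05. CST2, a close relative in sequence whose reads could be shared with CST1, also differed in each pair, from 1.51, 0.0601 and 0.0243 CPM to 10.3, 6.77 and 3.75.

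COL2A1, the fibrillar collagen of cartilage and notochord, was at 37.3, 24.6 and 11.1 CPM and then at 133, 86.6 and 56.6 CPM, a mean pair difference of 1.97 ± 0.29 SD (n = 3). The lowest day 4 library was above the highest day 3 library. Both the paired edgeR fit (adjusted p = 0.0397) and DESeq2 (0.00871) called COL2A1.

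S100A14, an epithelial calcium-binding protein, was at 0.204, 0.601 and 0.655 CPM on day 3 and at 4.81, 5.07 and 5.30 on day 4. The 3 day 4 levels of S100A14 lay close together, and it had the smallest adjusted p of DESeq2 (6.74e-06).

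Both IGFBP5 and IGFBP6, which bind insulin-like growth factors, were also higher in each pair. IGFBP5 went from 3.52, 19.2 and 4.47 CPM to 12.6, 188 and 38.0, and IGFBP6 from 2.36, 4.57 and 4.15 to 8.97, 26.0 and 18.7. IGFBP5 overlapped between days through replicate 2 on day 3, whereas IGFBP6 did not, and both were called in the paired edgeR fit (adjusted p = 0.0397) and by DESeq2 (0.0199 and 0.0140). NPPB, a natriuretic peptide gene, was at 0.639, 2.28 and 16.1 CPM and then 9.90, 14.7 and 50.8. MT2A, a metal-binding metallothionein, went from 0.340, 0.691 and 2.14 CPM to 2.34, 3.47 and 12.4, and was called in the paired edgeR fit (adjusted p = 0.0438). DESeq2 did not call MT2A (adjusted p = 0.1445). Of 8 tested metallothionein genes, counted with their regulator MTF1, 4 were higher and 1, MTF1, lower in all 3 pairs, beside 18.1% and 17.2% of all tested genes. Reads can be shared between these near-identical genes.

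Ligands and inhibitors of Nodal signalling differed in size between replicates. LEFTY2, a feedback antagonist that activin and Nodal induce, was at 14.3, 140 and 19.4 CPM on day 3 and at 42.4, 1201 and 215 on day 4. Replicate 2 was far above the other 2 on both days, and its day 3 level exceeded the day 4 level of replicate 1. The pair differences of LEFTY2 were 1.53, 3.10 and 3.44, with an edgeR adjusted p of 0.728 without pairing and 0.0397 with it.

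LEFTY1, its neighbour and near-identical copy, was close to absent in replicate 1, at 0.720 and 1.20 CPM, and went from 253 to 1522 in replicate 2 and from 29.8 to 425 in replicate 4. Without replicate 1 the sign of LEFTY1 was thus the same and its levels were much higher. GDF3, a Nodal-related ligand, went from 0.557, 7.39 and 4.44 CPM to 3.83, 21.1 and 39.7. NODAL itself was at 2.49, 113 and 47.1 CPM and then at 1.63, 180 and 62.3, lower in pair 1 and higher in pairs 2 and 4. CER1 had mixed signs as well, with pair differences of -0.27, -0.74 and 0.07.

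ACVR1B, a type I receptor for activin, was at 75.1, 98.5 and 79.0 CPM and then at 99.8, 138 and 107, without overlap. SMAD7, an inhibitory SMAD, was lower in each pair, by -0.35, -0.51 and -0.85. Of 24 tested genes of the activin and Nodal pathway, 6 were higher and 4 lower in all 3 pairs, beside 18.1% and 17.2% of all tested genes. Of 27 tested definitive endoderm genes, 11 were higher and 1 lower in all 3 pairs, beside 18.1% and 17.2% of all tested genes. Their median mean pair difference was 0.24. The other 15, among them SOX17, FOXA2, GATA4, GATA6, CER1, HHEX and EOMES, had mixed signs. The groups were without overlap for 0 on the higher and 0 on the lower side, beside 4.95% and 4.32% of all tested genes. CXCR4 and LEFTY2 were the 2 that the paired edgeR fit called higher, beside 0.0632% of all tested genes. The 1 lower member was the homeobox gene MIXL1, at 15.8, 154 and 309 CPM and then 5.24, 136 and 163.

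Genes of amino acid supply and other targets of the transcription factor ATF4 were lower in pairs 1 and 4 and divided in pair 2. ATF4 is translated when amino acids are short or the endoplasmic reticulum is stressed, and it induces genes for amino acid synthesis and transport, aminoacyl-tRNA synthetases and stress regulators. All 32 tested genes of this list were lower on day 4 in both pair 1 and pair 4, beside 33.3% of all tested genes. The planned rule was a shared sign in all 3 pairs, and in pair 2 there were 13 lower and 18 higher. NUPR1, a stress-induced regulator, had no counts on either day in pair 2. Both NUPR1 and FGF21 were under 1 CPM in all 6 libraries. The list's median pair differences were -0.90, 0.13 and -1.27. The 13 genes lower in all 3 pairs stand beside 17.2% of all tested genes, and 0 were higher. No member was called by edgeR with or without pairing.

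ASNS, asparagine synthetase, was at 643, 194 and 549 CPM on day 3 and at 133, 132 and 67.6 CPM on day 4. Replicate 2 was already low on day 3, and even so the groups did not overlap. The pair differences of ASNS were -2.26, -0.55 and -3.01, and DESeq2 gave an adjusted p of 0.0112 against 0.549 by edgeR without pairing and 0.133 with it. DDIT3, the stress factor CHOP, went from 69.4, 24.1 and 56.5 CPM to 21.8, 18.4 and 4.84, and CHAC1, which degrades glutathione, from 109, 39.1 and 114 to 31.6, 33.2 and 16.4, both without overlap. TRIB3, a pseudokinase that feeds back on ATF4, was at 116, 12.2 and 110 CPM on day 3 and at 15.1, 12.1 and 10.5 on day 4, so that its day 3 level in replicate 2 was already like those of day 4.

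DDIT4, an inhibitor of mTORC1 signalling, was the member with the widest spread of pair differences, -3.36, 1.63 and -4.51, from 690, 159 and 1069 CPM to 66.7, 493 and 46.6. The transport gene SLC7A11, the cystine carrier, was lower in each pair, at 415, 134 and 132 CPM and then 248, 47.5 and 34.7. The RNA of ATF4 itself was at 233, 229 and 467 CPM on day 3 and at 143, 309 and 217 on day 4, lower in pairs 1 and 4 and higher in pair 2. Replicate 2 was also the pair in which the share of ribosomal protein counts went up, from 2.31% to 4.02%, whereas it was level in pair 1 and went from 5.88% to 4.60% in pair 4, and its part in the difference between pairs was not tested.

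**Figure D3:**
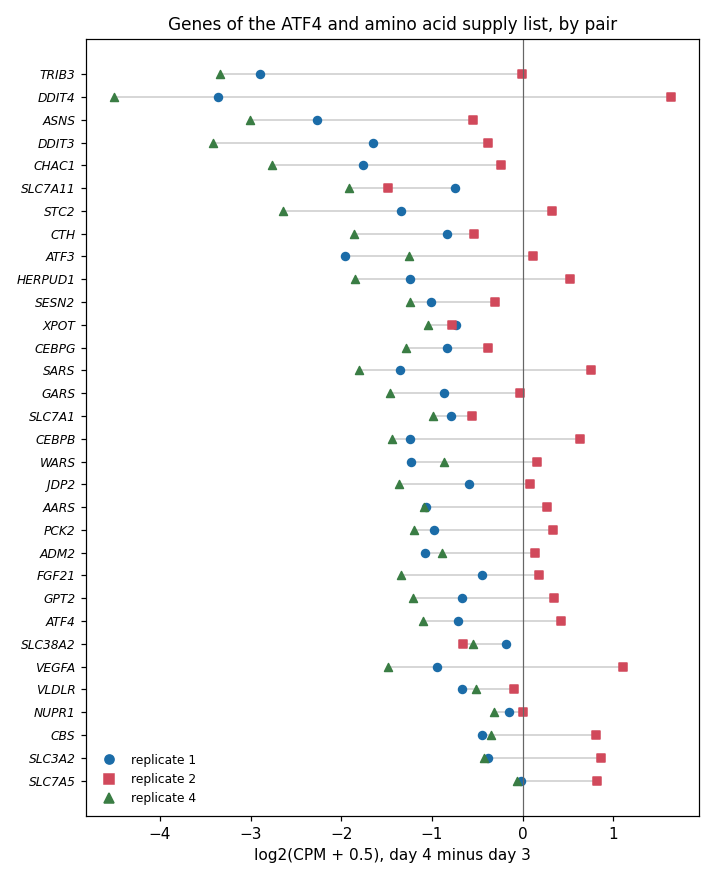
Pair differences, day 4 minus day 3 on the log2(CPM + 0.5) scale, of the 32 tested genes of the ATF4 and amino acid supply list, ordered by their mean, with a symbol for each replicate number. Circles and triangles, pairs 1 and 4, lie left of 0 for each of the 32 genes, while squares, pair 2, lie on both sides.

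The sequences just upstream of ASNS, CHAC1 and MTHFD2 are shown because many genes of this response carry a C/EBP-ATF element. ATF4 binds to this element with a C/EBP partner. MTHFD2 belongs to the list of serine and one-carbon synthesis and is not among the 32 genes. The windows are the 250 bases before the RefSeq start of the transcript on build GRCh38.p14, written 5′ to 3′ on the strand of the gene, and capitals mark a match to TGATGNAA on either strand. The ASNS window is chr7:97872409-97872658 on the minus strand, the CHAC1 window chr15:40953221-40953470 on the plus strand and the MTHFD2 window chr2:74198365-74198614 on the plus strand.
ASNS: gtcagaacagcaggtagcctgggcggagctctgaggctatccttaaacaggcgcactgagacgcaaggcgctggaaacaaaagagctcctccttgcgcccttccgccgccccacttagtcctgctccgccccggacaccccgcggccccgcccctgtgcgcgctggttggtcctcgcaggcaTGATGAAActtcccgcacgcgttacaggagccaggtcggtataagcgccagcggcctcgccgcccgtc
CHAC1: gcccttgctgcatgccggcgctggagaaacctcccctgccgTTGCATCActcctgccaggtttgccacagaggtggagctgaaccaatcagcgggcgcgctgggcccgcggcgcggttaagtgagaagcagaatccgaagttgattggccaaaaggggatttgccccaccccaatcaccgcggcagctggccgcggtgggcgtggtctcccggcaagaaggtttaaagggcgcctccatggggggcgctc
MTHFD2: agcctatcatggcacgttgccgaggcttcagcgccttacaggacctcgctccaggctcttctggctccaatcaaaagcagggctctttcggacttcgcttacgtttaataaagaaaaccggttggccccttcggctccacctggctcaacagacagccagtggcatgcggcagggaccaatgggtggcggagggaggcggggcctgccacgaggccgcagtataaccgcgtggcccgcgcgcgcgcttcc
The ASNS window held 1 match, starting 68 bases before the transcript start, and the CHAC1 window held 1 on the opposite strand, while the MTHFD2 window held 0. A second listed start of ASNS had 0 matches in its own window. Of the 32 genes, 26 had a window in the RefSeq table and 8 of them (30.8%) held a match in at least 1 window, against 338 of 13002 matched genes among all tested (2.60%) and 3.14% of all 35116 windows. Of 11 matched genes lower in all 3 pairs, 3 held a match, ASNS, CHAC1 and CEBPG, as did 5 of the 15 others of the list, so matches were no more frequent among its lower genes. Of all 2324 matched genes lower in all 3 pairs, 77 held a match, and of all 2321 higher in all 3 pairs, 30 did. Whether matches go with direction was not tested. A match describes the letters in the window and does not show that a factor binds there.

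MTHFD2, which oxidises one-carbon units on folate in mitochondria, led the lower side of the ranked genes. It was at 1129, 462 and 480 CPM on day 3 and at 325, 150 and 118 on day 4, so that each day 4 library lay below all 3 day 3 libraries. Its pair differences were -1.79, -1.62 and -2.02 (mean -1.81 ± 0.20 SD, n = 3), with an edgeR adjusted p of 0.597 without pairing and 0.0397 with it. PSAT1, the second enzyme of serine synthesis, went from 909, 416 and 624 CPM to 378, 217 and 205, also without overlap (edgeR adjusted p = 0.574 without pairing and 0.106 with it).

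PHGDH, the first enzyme of that path, did not have 1 direction. It was at 499, 245 and 1229 CPM on day 3 and at 150, 408 and 371 on day 4, lower by 1.74 and 1.73 on the log2 scale in pairs 1 and 4 and higher by 0.73 in pair 2. EdgeR gave PHGDH an adjusted p of 0.878 without pairing and 0.450 with it. SHMT2, which takes one-carbon units from serine in mitochondria, had the same order of signs, from 300.2, 131 and 575 CPM to 83.3, 190 and 191. PSPH, the last enzyme of serine synthesis, was at 41.7, 40.6 and 23.8 CPM and then 41.6, 33.8 and 34.8. Of 20 tested genes of serine and one-carbon synthesis, 12 were lower and 4 higher in both pair 1 and pair 4, beside 33.3% and 34% of all tested genes. The medians were -0.37, 0.05 and -0.32. In all 3 pairs, 2 were higher and 4 lower, beside 18.1% and 17.2% of all tested genes. The 4 were PSAT1, MTHFD2, its relative MTHFD2L and the folate dehydrogenase ALDH1L2.

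**Figure D4:**
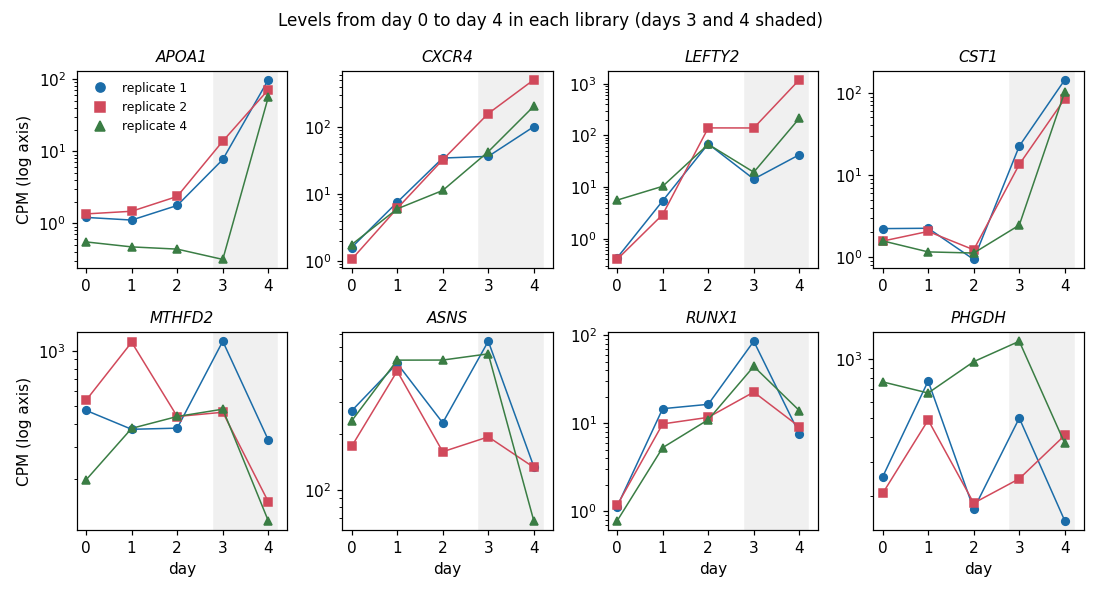
Levels of 8 genes in all 15 libraries, with the day on the horizontal axis, CPM on a logarithmic vertical axis that differs between panels, a line for each replicate number and days 3 and 4 shaded. APOA1 and CST1 lines stay at or below 2.36 CPM until day 2, RUNX1 lines are highest on day 3, and PHGDH lines of replicates 1 and 4 end lower on day 4 than on day 3 while that of replicate 2 ends higher.

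Several factors of mesoderm and mesenchymal transition, and RUNX1 among blood genes, were lower on day 4 in each pair. The blood and endothelium list itself was mixed, with 7 of 19 tested genes higher and 4 lower in all 3 pairs, beside 18.1% and 17.2% of all tested genes. RUNX1, a factor of blood and other lineages, was at 85.9, 22.7 and 44.5 CPM on day 3 and at 7.64, 9.16 and 13.99 on day 4. The day 3 levels of RUNX1 were the highest of the 5 days in each replicate, and days 3 and 4 did not overlap. Its pair differences were -3.41, -1.26 and -1.63, and DESeq2 (adjusted p = 0.00372) called it while edgeR did not, with 0.549 without pairing and 0.109 with it.

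SNAI2, the repressor SLUG of mesenchymal transition, was at 88.3, 3.60 and 19.0 CPM and then at 22.8, 1.06 and 4.28. The replicates kept the same order on both days, replicate 1 highest, so the groups overlapped and the 3 pair differences, -1.93, -1.40 and -2.03, were close. EdgeR gave SNAI2 an adjusted p of 0.821 without pairing and 0.0397 with it. SNAI1, its paralog, went from 52.0, 14.4 and 65.2 CPM to 16.4, 12.8 and 20.0. The zinc finger repressors ZEB2 and ZEB1 had pair differences of -0.93, -0.92 and -0.81 and of -0.73, -0.81 and -0.42. Of 24 tested genes of mesenchymal transition, 8 were lower and 4 higher in all 3 pairs, beside 17.2% and 18.1% of all tested genes, with a median mean pair difference of -0.08.

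Of 24 tested mesoderm genes, 7 were lower and 2 higher in all 3 pairs, beside 17.2% and 18.1% of all tested genes. The median pair differences were -0.38, 0.05 and -0.25, and in pair 2 alone 11 were lower and 12 higher. Among the 7 were FOXC1, at 51.4, 2.46 and 14.9 CPM and then 11.4, 1.92 and 2.30, and PDGFRB, at 93.9, 15.1 and 73.3 and then 43.5, 9.56 and 34.3. KDR, the VEGF receptor of vessel and mesoderm cells, was at 275, 51.8 and 366 CPM and then 185, 46.0 and 117. The summed level of the mesoderm list was 1350, 552 and 1203 CPM on day 3 and 836, 674 and 986 on day 4, lower in pairs 1 and 4 and higher in pair 2. The higher sum in pair 2 came with GATA4, which endoderm also expresses: without it the other 23 genes summed to 1129, 299.6 and 861 CPM on day 3 and 635, 200.6 and 520.2 on day 4, lower in each pair. Leaving out GATA4 was chosen after seeing the data. The part of mesoderm cells in the lower ATF4 genes was not tested.

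The lists of other cells that such cultures could hold were mixed. Of 19 tested blood and endothelium genes 7 were higher and 4 lower in all 3 pairs, with a summed level of 215 to 564 CPM on day 3 and 254 to 450 on day 4 and no testable counts for the blood genes GATA1, HBE1 and HBZ. Among the higher, VWF went from 91.3, 81.5 and 19.5 CPM to 140, 148 and 52.6. SOX18, also higher, went from 4.06, 3.15 and 5.39 to 6.13, 5.67 and 6.54 without overlap. TEK, an endothelial receptor, was at 1.81, 2.34 and 1.87 CPM and then 15.8, 2.56 and 10.8, close to level in pair 2 alone. With the library of day 4 replicate 2 left out, TEK was the 1 gene that edgeR called without pairing (adjusted p = 0.00946). That library is the one in which TEK was close to its day 3 level, so the call is no support for a difference in TEK. Of 19 tested extraembryonic endoderm genes 7 were higher and 3 lower in all 3 pairs, beside 18.1% and 17.2% of all tested genes. Their median mean pair difference was 0.22, and their sum was 3806 to 3874 CPM on day 3 and 3894 to 4815 on day 4. HNF4A and FST were among the 7 higher, and PDGFRA and PTH1R among the 3 lower. AFP, which yolk sac endoderm makes, was at 0.177 CPM or less and TTR was not tested, for too few counts. The part of these cells in the higher APOA1 and APOA2 was not tested.

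For 14 trophoblast and amnion genes the counts were 2 higher and 3 lower, and for 19 neural and surface ectoderm genes 3 higher and 4 lower. Among all tested genes, 18.1% were higher and 17.2% lower in all 3 pairs. The eye and forebrain factor PAX6 was at 1.22, 29.3 and 6.41 CPM and then 2.34, 60.5 and 17.5. Of 25 tested pluripotency genes, 5 were higher and 4 lower in all 3 pairs. PODXL, a surface protein of stem cells and of many epithelia, was among the higher, at 3350, 4109 and 1017 CPM and then 7701, 5214 and 3682, while NANOG was at 12.4, 37.9 and 83.7 and then 12.6, 17.5 and 56.6.

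The keratins KRT8 and KRT18, the claudin CLDN6 and several basement membrane proteins were higher on day 4 in each pair. KRT8, a keratin of simple epithelia, was at 1063, 734 and 1229 CPM on day 3 and at 1604, 1473 and 2272 on day 4, and the lowest day 4 level lay above the highest of day 3. Its partner KRT18 went from 634, 398 and 653 CPM to 1040, 616 and 1068, with overlap through replicate 2. Another keratin, KRT19, was lower in pairs 1 and 4 and higher in pair 2, from 521.8, 380 and 648.5 CPM to 400.3, 811.6 and 491.2. CLDN6, a tight junction protein, was at 63.8, 90.7 and 258 CPM and then at 124, 205 and 320. Of 30 tested junction genes 10 were higher and 3 lower in all 3 pairs, beside 18.1% and 17.2% of all tested genes. The list's medians were 0.52, 0.48 and -0.23, so pair 4 went the other way, and CDH1, E-cadherin, was among the lower, at 21.9, 8.50 and 122 CPM and then 16.5, 8.39 and 54.0.

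In the basement membrane, the sheet beneath epithelia, AGRN (agrin) was at 170, 188 and 239 CPM and then at 407, 371 and 546, COL18A1 at 299, 233 and 237 and then 519, 542 and 512, and HSPG2 (perlecan) at 223, 221 and 205 and then 339, 434 and 450. In all of these the 2 groups were apart, and the libraries of a day lay close together. Of 30 tested basement membrane and integrin genes, 11 were higher and 2 lower in all 3 pairs, beside 18.1% and 17.2% of all tested genes. On the higher side 6 did not overlap, beside 4.95% of all tested genes. The list's median mean pair difference was 0.27. No gene of the junction or basement membrane lists was called by edgeR with or without pairing; AGRN had an adjusted p of 0.680 without pairing and 0.119 with it.

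Wnt, BMP and retinoic acid genes had members in both directions, as did all tested genes. LEF1, a Wnt target and effector, went from 58.2, 5.11 and 19.8 CPM to 21.8, 2.10 and 8.69, and FRZB, a secreted Wnt antagonist, from 78.5, 153 and 17.5 to 209, 251 and 193 without overlap. Of 31 tested Wnt genes 6 were higher and 6 lower in all 3 pairs, beside 18.1% and 17.2% of all tested genes. The same shares stand beside the BMP, retinoic acid and FGF counts that follow. The BMP target ID2 was at 403, 24.6 and 101 CPM and then at 249, 8.88 and 32.9, and 7 of 26 BMP pathway genes were lower and 2 higher. STRA6, a retinol uptake receptor, went from 41.2, 32.6 and 49.8 CPM to 13.6, 24.7 and 16.5, and 6 of 20 retinoic acid genes were lower and 2 higher. Of 26 FGF and ERK feedback genes 2 were higher and 3 lower, among the latter SPRY4, at 185, 211 and 437 CPM and then 88.0, 166 and 251.

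**Figure D5:**
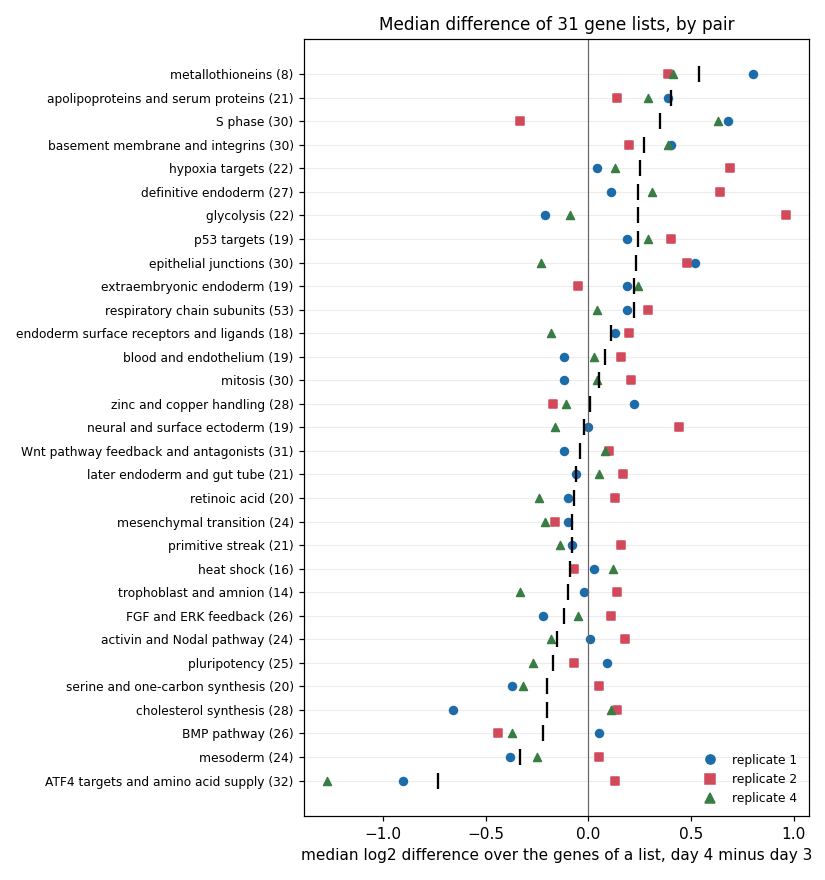
Median pair difference, day 4 minus day 3 on the log2(CPM + 0.5) scale, over the tested genes of each of 31 gene lists, with their number in brackets, a symbol for each replicate number and a black bar for the median of the genes' mean pair differences. Metallothioneins (0.54) are at the top and ATF4 targets (-0.73) at the bottom, and glycolysis and S phase medians of pair 2 stand apart from those of pairs 1 and 4.

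Among metabolic and cell cycle lists, the glycolysis and S phase medians of pair 2 stood apart from those of pairs 1 and 4. SLC2A3, a glucose transporter, was higher in each pair and without overlap, at 2355, 5057 and 3487 CPM and then 6348, 10990 and 7964, with a mean pair difference of 1.25 ± 0.16 SD (n = 3). Its reads can be shared with the near-identical SLC2A14. LDHA, lactate dehydrogenase, was at 289, 915 and 332 CPM and then at 430, 1652 and 682. The 22 tested glycolysis genes had median pair differences of -0.21, 0.96 and -0.09. In all 3 pairs 7 were higher and 3 lower, beside 18.1% and 17.2% of all tested genes.

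S phase genes went the other way, with medians of 0.68, -0.33 and 0.63. Of 30 tested S phase genes, 24 were higher in both pair 1 and pair 4, beside 34% of all tested genes, and 10 were higher in pair 2. In all 3 pairs 8 were higher and 0 lower, beside 18.1% and 17.2% of all tested genes. PCNA, the clamp of the replication fork, was at 82.9, 131 and 44.8 CPM and then at 214, 76.5 and 115, while FEN1, a flap nuclease of replication, went from 16.9, 32.9 and 21.0 to 42.8, 38.6 and 55.9 without overlap. Mitosis genes had 3 higher and 3 lower of 30.

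Of 53 tested respiratory chain subunits, 17 were higher and 3 lower in all 3 pairs, beside 18.1% and 17.2% of all tested genes. These shares also stand beside the cholesterol and p53 counts that follow. The medians of the subunits were 0.19, 0.29 and 0.04, and COX6B1, a subunit of cytochrome c oxidase, was at 66.3, 77.3 and 135 CPM and then 91.1, 136 and 167. Of 28 cholesterol synthesis genes 3 were higher and 6 lower. TM7SF2, a sterol reductase, was on the higher side, at 10.8, 18.8 and 8.18 CPM and then 25.5, 40.1 and 38.8. Of 19 p53 targets 6 were higher and 1 lower, including BAX, a promoter of apoptosis, at 45.6, 54.5 and 156 CPM and then 73.7, 182 and 279. No member of these metabolic, cell cycle and p53 lists was called by edgeR with or without pairing.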

How the data were processed

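The 15 polyA-selected libraries were deposited as a table of gene counts, whole numbers by gene symbol with no normalization. Per the submitters' processing notes, the authors used TopHat2 2.0.14 and hg19. How reads were counted, by which annotation and with which strand setting, was not given in the sources used here. Overlapping and antisense genes are therefore uncertain. All values were even. Of 52 repeated entries 44 were dropped as identical and 8 summed, leaving 23346 symbols.

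The main test was edgeR 4.0.16 (limma 3.58.1, R 4.3.3): quasi-likelihood, TMM scaling, filterByExpr (17401 genes), a mean per day, all 15 libraries, Benjamini-Hochberg adjustment. Same-numbered libraries of days 3 and 4 deviated together from their day's means (correlations across genes of 0.761, 0.211 and 0.688), so the fit of the 6 libraries with the pairs as a block is given beside it. Day 4 replicate 2 correlated better with replicate 4 of each earlier day than with its own number. DESeq2 1.42.0, other scalings, filters and pseudocounts, counts halved and left-out libraries were alternatives; counts halved and DESeq2 with a block were added after the data were seen. The scripts were tested on simulated data.

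The comparison, its genes and the 31 gene lists were chosen with earlier results of these data known. Genes were named by a rule: a fixed set, the 15 in each direction with the largest smallest pair difference at a mean of at least 5 CPM, up to 12 called by the main test, and up to 4 members of each list. HP, S100A14 and MT2A, called in the paired fit, and members such as DDIT3, CHAC1, TRIB3, DDIT4, VTN, PCNA, SNAI1, TEK and CST2 were added after their values were seen. Not every gene chosen this way is reported here. Promoter sequences are from RefSeq. Tables and plots used Python 3.11.15, pandas 2.3.3 and matplotlib 3.10.9.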

Additional observations from a re-analysis of the deposited data

How the results depend on the processing

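The number of calls depended on the test and on pairing. Against 0 higher and 0 lower by edgeR without pairing, the replicate block with only the 6 libraries gave 11 and 2, DESeq2 gave 27 and 37, and DESeq2 with a replicate block gave 62 and 77, while the replicate block over all 15 libraries, other scalings, other filters and counts halved gave 0 and 0. Leaving out libraries in turn gave 0 to 1 higher and 0 lower. Of the 13 genes of the paired edgeR fit, 6 were also called by DESeq2 and 8 by DESeq2 with a block. The cause was not tested.

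Genes higher in all pairs numbered 3146 and, with a replicate number left out, 4407 to 5925; lower genes numbered 2991 and 3971 to 5790. By construction, fewer pairs leave fewer signs to share. Genes at least 2-fold higher in all pairs numbered 55, but 98 at a pseudocount of 0.1, 29 at a pseudocount of 2 and 94 to 214 with a replicate number left out, and genes at least 2-fold lower 19, 41, 9 and 37 to 256. The upper ends were all without replicate 2.

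Over 1304 alternatives for 145 named genes, the mean pair difference moved in 17 and changed sign in 5, the latter each with a replicate left out. List medians were less stable: over 279 alternatives for 31 lists, 18 moved and 23 changed sign, 16 of the latter with a replicate left out. The biological coefficient of variation was 45.5% with 3 libraries a day. What depth limits was not tested, since counts halved could show no loss from 0 calls.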

Other observations

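Several genes picked for a large difference in each pair belong to none of the gene groups described. Higher on day 4 was LRRN4, a leucine-rich repeat protein, at 0.951, 3.39 and 0.461 CPM on day 3 and 4.56, 11.8 and 14.7 on day 4, without overlap between the days. Lower on day 4 were the adaptor protein gene SH2B3, at 122, 58.1 and 96.3 CPM and then 49.0, 19.6 and 36.1, the receptor tyrosine kinase RET, at 12.6, 10.9 and 26.0 and then 4.95, 3.63 and 9.89, and the axon guidance receptor ROBO2, at 25.1, 18.4 and 35.0 and then 11.6, 8.76 and 6.32. In each of these 3 genes the day 4 libraries lay below the day 3 libraries. EdgeR called none of the 4 with or without pairing, and DESeq2 called LRRN4 (adjusted p = 0.0178), SH2B3 (0.0266) and ROBO2 (0.0126).

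Of 16 tested heat shock genes, 4 were higher and 3 lower in all 3 pairs, beside 18.1% and 17.2% of all tested genes. The same shares stand beside the other counts of this paragraph. The inducible chaperone HSPA1B was at 5.90, 11.1 and 8.64 CPM and then at 9.62, 24.2 and 31.5, and its near-identical copy HSPA1A at 2.09, 5.35 and 5.97 and then 2.53, 13.7 and 21.8, while HSP90AB1, an abundant constitutive chaperone, was at 2212, 2082 and 2385 and then 1804, 1550 and 1798. Of 28 zinc and copper handling genes, 3 were higher and 6 lower, among the higher ATOX1, a copper chaperone, at 7.41, 13.5 and 21.9 CPM and then 14.4, 29.1 and 34.4. Of 22 hypoxia targets, 5 were higher and 1 lower, the latter PDK1, a kinase that restrains pyruvate oxidation, at 155, 332 and 231 CPM and then 64.8, 215 and 138. Of 21 primitive streak genes, 5 were higher and 4 lower, and the streak factor GSC went from 1.64, 39.1 and 91.4 CPM to 1.90, 201 and 105.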
